A study of Mus musculus with 3 samples.

Results

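The 10 genes Pou5f1, Sox2, Nanog, Klf2, Klf4, Klf5, Zfp42, Esrrb, Tfcp2l1 and Tbx3 encode transcription factors of pluripotent cells, and were taken as a list by symbol from the 32285 genes counted in this series. Each symbol matched 1 gene, so all 10 were measured. Expression was read in single cells from 3 kinds of aggregates, each with 1 library, all grown from E14tg2a mouse embryonic stem cells (ESCs). Bilayered embryo-like aggregates (BELAs) and VE cysts came from iGATA ESCs of clone C6, in which doxycycline turns on a GATA4 transgene that drives cells into the primitive endoderm, the precursor of the visceral endoderm (VE). For BELAs, doxycycline (0.5 µg/ml) was given for 8 hours in 2i + LIF, followed by 16 hours in N2B27 and 3 days after seeding in N2B27, so that epiblast-like (Epi) and VE cells arose side by side. For VE cysts doxycycline was kept for 24 hours in all, with FGF4 (10 ng/ml) and heparin (1 µg/ml) added on leaving 2i + LIF and kept in the N2B27 of the 3 days after seeding. Epi cysts were made from iGATA ESCs, with no clone named in the labels and no doxycycline step described, which spent 1 day in 2i + LIF and 3 days in N2B27 within matrigel. About 200 BELAs and 200 VE cysts were picked by eye, and VE cysts with a visible core of Epi-like cells were passed over.

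Pou5f1 (OCT4) and Sox2 bind DNA together at many genes of pluripotent cells, and Nanog joins them in a circuit in which the factors sustain each other's transcription. Klf2, Klf4, Klf5, Esrrb, Tfcp2l1 and Tbx3 hold mouse ESCs in the naive state of the preimplantation epiblast, in which 2i + LIF keeps them, and Zfp42 (REX1) is a marker of that state. When cells leave it for the formative and primed states, the naive factors are turned down, Pou5f1 is kept, and Otx2, Fgf5, Pou3f1 and Dnmt3b come up. Outside the epiblast some of these genes have other known roles, and Klf4 and Klf5 are also factors of epithelial cells.

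The genes lie on chromosomes 17, 3, 6, 8, 4, 14, 8, 12, 1 and 5, in the order listed above. The promoters of Zfp42 and Nanog are shown because the results turn on these genes (a few cells with very high Zfp42, and Nanog with the brachyury gene T), and because they hold motifs of the POU, SOX and KLF families to which other listed factors belong. Each line gives the 250 bases before the annotated start, 5′ to 3′ on the gene's strand, from RefSeq on build GRCm38.p6, and capitals mark every match to 4 short motifs on either strand.
Zfp42 (chr8:43307010-43307259, minus strand): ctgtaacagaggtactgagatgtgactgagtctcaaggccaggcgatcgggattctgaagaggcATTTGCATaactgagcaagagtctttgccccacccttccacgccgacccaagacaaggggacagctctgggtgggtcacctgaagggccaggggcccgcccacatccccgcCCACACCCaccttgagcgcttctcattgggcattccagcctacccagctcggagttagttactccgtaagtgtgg
Nanog (chr6:122707239-122707488, plus strand): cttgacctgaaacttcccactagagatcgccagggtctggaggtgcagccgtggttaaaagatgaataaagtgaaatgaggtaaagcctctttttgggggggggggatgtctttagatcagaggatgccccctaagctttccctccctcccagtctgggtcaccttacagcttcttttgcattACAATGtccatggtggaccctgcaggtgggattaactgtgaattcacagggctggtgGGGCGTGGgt
The motifs searched were the octamer of POU factors (ATGCAAAT), a SOX motif (CATTGT), a KLF motif (GGGNGTGG) and a GATA motif (AGATAA). Matches did not overlap in these promoters. The Zfp42 window held an octamer, 186 bases before the start, and a KLF match, 75 bases before it. The Nanog window held a SOX match and a KLF match, 67 and 10 bases before the start. Among 32817 promoter windows of this length, 1.60% held the octamer, 10.7% the SOX motif, 15.9% the KLF motif and 9.99% the GATA motif. The table had 11 promoters for 8 of the 10 genes, of which 1 held the octamer, 3 the SOX motif, 5 the KLF motif and 0 the GATA motif. Windows of Nanog overlap and share matches, so by gene 1 held the octamer, 2 the SOX motif, 4 the KLF motif and 0 the GATA motif. Promoters of Klf5 and Tbx3 were not analysed here. A match describes letters only.

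Cells were kept where 4000 genes or more were detected and no more than 10% of the UMIs (unique molecular identifiers, 1 per captured mRNA molecule) were mitochondrial. A cell was called VE where its UMIs of Gata6, Sox17, Dab2 and Cubn exceeded those of Pou5f1, Sox2, Nanog and Fgf4, and Epi otherwise. This gave 868 Epi and 542 VE cells in BELAs, 656 Epi cells and 1 VE cell in Epi cysts, and 48 Epi and 577 VE cells in VE cysts. The median depth ran from 56914 UMIs in VE cells of VE cysts to 90251 UMIs in VE cells of BELAs, with 60131 UMIs in Epi cells of Epi cysts and 78973 UMIs in Epi cells of BELAs. The rule fixes the split of its own markers, and the 4 VE markers summed to 2842 CPM in VE cells of BELAs against 23.2 CPM in their Epi cells (CPM, UMIs of the gene per 1000000 UMIs of the group). In VE cysts the same sum was 3003 CPM in VE cells and 16.5 CPM in Epi cells, and in Epi cells of Epi cysts it was 2.96 CPM. Of genes that the rule did not use, Dnmt3b, a DNA methyltransferase gene of the formative epiblast, was at 335 CPM in VE cells of BELAs and 958 CPM in their Epi cells. Of the 48 Epi cells of VE cysts, 4 had equal marker counts and fell to Epi by the rule. Libraries shared 0 to 2 barcodes, and 0 among the kept cells. With 1 library per kind of aggregate, no test of a condition was possible, and the 95% intervals given in brackets cover counting error only. Aggregate type, medium, matrix and library cannot be told apart.

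In Epi cells the core factors were present in both settings and within 2-fold of each other, as were Klf4 and Klf5 among the naive factors, while Klf2, Zfp42, Esrrb, Tfcp2l1 and Tbx3 were more than 2-fold apart in CPM. Pou5f1 stood at 480 CPM (475 to 485) in Epi cells of BELAs, against 601 CPM (593 to 608) in Epi cysts, a ratio of 0.799. Sox2 stood at 46.4 CPM (44.8 to 47.97) in BELAs, against 76.2 CPM (73.6 to 78.9) in Epi cysts. Nanog differed least among the core factors, at 29.9 CPM (28.6 to 31.2) in BELAs, against 33.0 CPM (31.3 to 34.8) in Epi cysts. The 3 intervals for BELAs lay below those for Epi cysts. These 3 genes took part in calling cells Epi, so their presence in Epi cells is a description.

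Among the naive factors, Klf2 and Zfp42 went in opposite directions. Klf2 was at 10.9 CPM (10.2 to 11.7) in BELAs, against 30.1 CPM (28.4 to 31.8) in Epi cysts. Zfp42 was at 25.2 CPM (24.01 to 26.3) in BELAs, against 10.1 CPM (9.17 to 11.2) in Epi cysts. Klf5 had 12.5 CPM (11.7 to 13.4) in BELAs, against 6.34 CPM (5.59 to 7.16) in Epi cysts. Klf4 was level within its counting error, with 7.57 CPM (6.95 to 8.23) in BELAs, against 8.05 CPM (7.20 to 8.97) in Epi cysts. Esrrb, Tfcp2l1 and Tbx3 were scarce in both, at 1.76, 2.97 and 2.94 CPM in BELAs, against 0.342, 1.22 and 0.538 CPM in Epi cysts. On the scale of log2(CPM + 5), which damps the change of low genes, 0 of the 10 genes lay 2-fold or more above Epi cysts in BELAs, and 1, Klf2, lay 2-fold or more below (log2 ratio -1.14). With 20 CPM added Klf2 no longer passed (-0.69). Over all 12879 genes with 1 CPM in either group, 0.932% were at least 2-fold higher and 1.00% at least 2-fold lower. Zfp42 lay at the limit, with a log2 ratio of 0.995 (0.887 to 1.104), and passed it when cells were thinned to equal depth (1.02). The median over the 10 genes was 0.14, against -0.02 over all genes tested.

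VE markers stood at 23.2 CPM in Epi cells of BELAs, against 2.96 CPM in Epi cysts, and the lineage rule kept both sums low. The sum in Epi cells of BELAs was 0.816% of that in their VE cells. That share of the RNA of VE cells would bring 1.34 CPM of Klf5, 0.387 CPM of Tbx3 and 0.381 CPM of Klf4. For Zfp42 it would bring 0.301 CPM and for Tfcp2l1 0.117 CPM. Whether RNA from VE cells had a part in these differences was not tested.

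**Figure D1:**
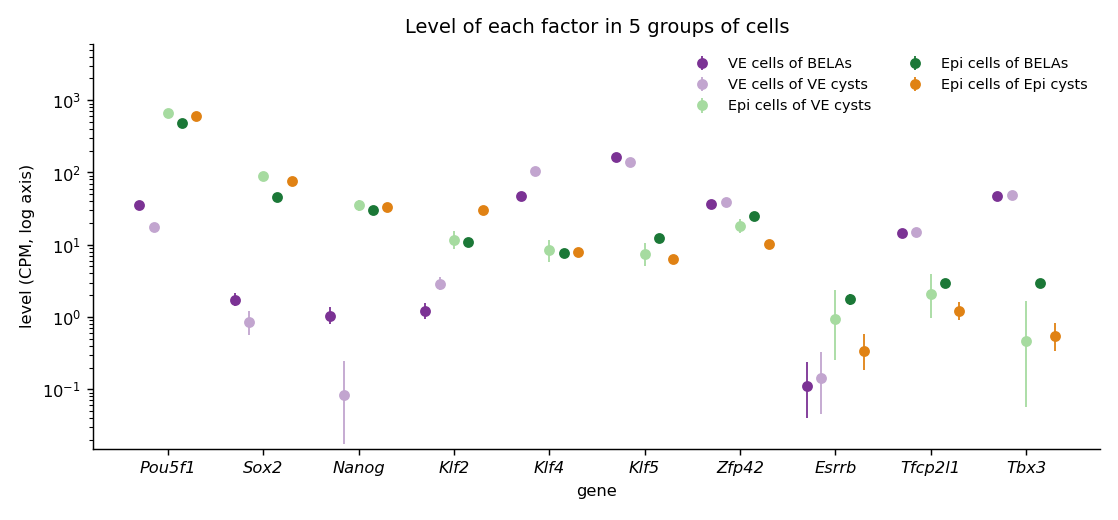
Levels of the 10 genes in CPM on a log axis, with points for summed UMIs of each group and bars for exact 95% Poisson intervals (counting error only). Pou5f1, Sox2 and Nanog lie highest in the 3 Epi groups, while Klf4, Klf5, Tfcp2l1 and Tbx3 lie highest in the 2 VE groups, and Zfp42 is between 10.1 and 39.6 CPM throughout.

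A few cells held a large part of several naive factors in BELAs. To compare cells at equal depth, each was thinned at random to 40000 UMIs, which kept 801 Epi cells of BELAs and 592 of Epi cysts. In Epi cysts no cell held more than 3 Zfp42 UMIs. In BELAs 14 of the 801 cells (1.75%, 0.959 to 2.92, exact binomial) held 10 to 37, and the highest of the other cells held 7. In Epi cysts 0 of 592 cells reached 10, with an exact binomial upper limit of 0.621%. Of 44 Epi cells of VE cysts 0 did, with an upper limit of 8.04%. The limit of 10 UMIs was set after the counts per cell were seen, so the Zfp42 values of these cells (a median of 15.5 UMIs) describe how they were picked.

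**Figure D2:**
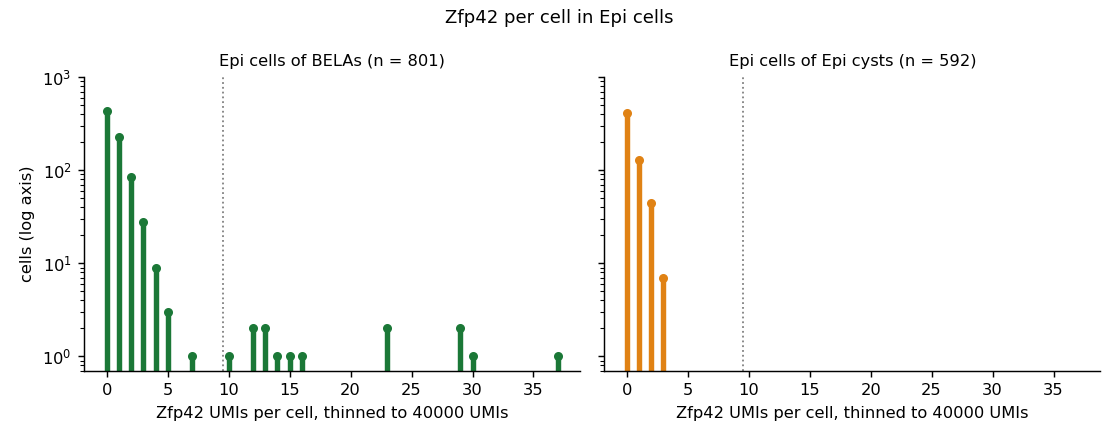
Number of Epi cells (log axis) with each number of Zfp42 UMIs after thinning to 40000 UMIs, for BELAs on the left and Epi cysts on the right, with a dotted line at the limit of 10 UMIs. In BELAs 14 cells lie at 10 to 37 UMIs, and in Epi cysts the highest cell has 3.

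These 14 cells carried the other naive factors too. Tbx3, a T-box factor, stood at 92.9 CPM (69.3 to 122) in them and at 1.24 CPM (0.881 to 1.69) in the other 787 Epi cells of BELAs, 74.95-fold apart (48.5 to 117). Tfcp2l1, a target of LIF signalling in ESCs, was at 89.3 CPM in the 14 cells and 1.68 CPM in the others (53.0-fold, 35.3 to 79.6). The orphan receptor gene Esrrb was at 44.6 CPM in the 14 cells and 0.921 CPM in the others (48.5-fold, 27.2 to 85.7). Klf2 stood at 245 CPM in the 14 cells and 7.43 CPM in the others, and Klf4 at 92.9 CPM in the 14 cells and 6.54 CPM in the others. Klf5 differed less, at 67.9 CPM in the 14 cells and 11.7 CPM in the others. Each of these 6 genes was found in 10 to 13 of the 14 cells, with a median of 10.5 UMIs per cell for Klf2 and of 1.5 to 4 UMIs for the rest, and each was at 0 in at least 1 of them. The 14 cells, 1.75% of the thinned cells, held 57.1% of all Tbx3 UMIs of the Epi cells, 48.5% of those of Tfcp2l1, 46.3% of those of Esrrb and 36.9% of those of Klf2.

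The core factors were not alike in this. Pou5f1 had 518 CPM (460 to 581) in the 14 cells and 476 CPM (469 to 484) in the others. Sox2 had 245 CPM in the 14 cells against 42.6 CPM in the others (5.74-fold, 4.78 to 6.85), and Nanog 136 CPM against 27.5 CPM (4.94-fold, 3.85 to 6.25). Genes of the formative state stood lower, with Fgf5 at 14.3 CPM in the 14 cells and 90.8 CPM in the others, Otx2 at 37.5 CPM in the 14 cells and 107 CPM in the others, and Dnmt3b at 209 CPM and 946 CPM. The 14 cells had 0.304 of the others' level of Pou3f1 (0.219 to 0.412) and 0.118 of that of Lef1 (0.0243 to 0.346). Utf1, a gene of both states, was at 988 CPM in the 14 cells and 608 CPM in the others, and found in 14 of 14.

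Some further genes of the naive state on the wider list stood with them, but not all. Tcl1 was 105-fold higher (54.2 to 211), and Dppa5a was at 2164 CPM in the 14 cells and 620 CPM in the others. Dppa3 was at 17.9 CPM in the 14 cells and 0.667 CPM in the others. Nr0b1 had 2 UMIs, in 1 of the 14 cells (3.51-fold, 0.408 to 13.8). Klf17, on the list of KLF genes, had 0 UMIs in the 14 cells and 3 in the others. Tfap2c, a gene of naive ESCs, germ cells and trophoblast, was at 48.2 CPM in the 14 cells and 1.05 CPM in the others. The germ cell genes Prdm1, Nanos3 and Prdm14 had 0 UMIs in the 14 cells. Prdm14 is also on the wider pluripotency list, and had 4 UMIs in the others. Hand1, known from trophoblast and mesoderm, was at 341 CPM in the 14 cells and 0.889 CPM in the others, in 11 of the 14, and was chosen after its values were seen. The VE markers Gata6, Sox17, Dab2 and Cubn had 1 to 7 UMIs each over the 14 cells, and their summed level per cell had a median of 27.8 CPM (12.7 to 53.9) in the 14 cells and 16.4 CPM (0 to 457) in the others. Before thinning, the 14 cells had a median of 78051 UMIs (43862 to 203949), against 82128 UMIs in the others, and 4.32% mitochondrial UMIs against 3.42%. By the lineage markers 0 of the 14 were mixed cells.

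**Figure D3:**
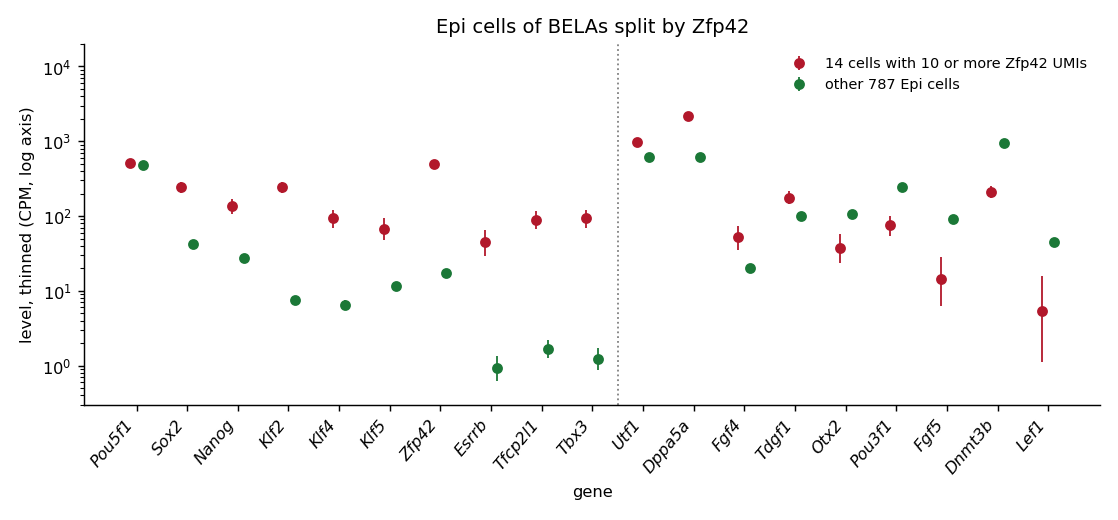
Levels in thinned Epi cells of BELAs (CPM, log axis), for the 14 cells with 10 or more Zfp42 UMIs and for the other 787, with exact 95% Poisson intervals. Left of the dotted line are the 10 listed genes, of which Klf2, Esrrb, Tfcp2l1 and Tbx3 are over 30-fold higher in the 14 cells and Pou5f1 is close in both, and right of it naive, formative and shared genes, of which Otx2, Pou3f1, Fgf5, Dnmt3b and Lef1 are lower.

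Without using Zfp42, 21 of 801 Epi cells of BELAs (2.62%, 1.63 to 3.98) held UMIs of at least 4 of the other 6 naive factors, against 2 of 592 cells of Epi cysts (0.338%, 0.0409 to 1.22). Of the 14 cells, 12 were among the 21. With at least 3 of the 6 factors the counts were closer, at 49 of 801 cells of BELAs and 25 of 592 of Epi cysts. When the 14 cells were left out, the ratio of BELAs to Epi cysts was 2.67 for Tbx3 (1.34 to 5.77), 2.18 for Esrrb (1.03 to 5.02), 1.71 for Zfp42 (1.47 to 2.01) and 1.29 for Tfcp2l1 (0.811 to 2.07). Klf2 then stood at 0.258 of its level in Epi cysts (0.221 to 0.299), and Klf5 at 1.94 (1.59 to 2.36). The median log2 ratio of the 10 genes was then -0.04. The 14 cells were picked by Zfp42, and no Epi cyst cells were left out, so the Zfp42 ratio is lowered by that choice.

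The spread over cells also differed between BELAs and Epi cysts. The variance of thinned UMIs over their mean, which is near 1 for counting noise alone, was in Epi cells of BELAs 8.18 for Zfp42, 7.85 for Klf2 and 4.72 for Tbx3, and 1.15, 3.11 and 0.983 in Epi cysts. The 14 cells were picked by Zfp42, so leaving them out lowers its value by the choice itself. Without them the ratio of variance to mean was 1.33 for Zfp42, 3.91 for Klf2 and 1.57 for Tbx3. Klf2 thus varied beyond counting noise in both settings, and was found in 16.1% of Epi cells of BELAs and 46.3% of those of Epi cysts after thinning (22.4% and 57.0% at full depth). In VE cells of BELAs, it was found in 3.31% after thinning and 6.64% at full depth. Pou5f1 was found in all thinned Epi cells of both, with a ratio of variance to mean of 2.22 in BELAs and 3.29 in Epi cysts. It makes up most of the Epi marker sum, so its presence in Epi cells is largely set by the lineage rule.

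Spearman correlations over thinned cells describe how the genes went together. All points of a group share a library and a depth of 40000 UMIs. Among the 7 naive genes, all 21 pairs were above 0 in Epi cells of BELAs, with a median of 0.18 and a highest value of 0.33. Without the 14 cells, 15 pairs had enough cells with a UMI (20 for each gene), and their median was 0.07. In Epi cysts 10 pairs could be read, with a median of 0.02 and 6 above 0. In sparse counts, values of this size are weak.

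For the core factors, Pou5f1 and Nanog went weakly together in both settings, at 0.14 over 801 Epi cells of BELAs and 0.25 over 592 of Epi cysts. Sox2 ran against both in Epi cysts, at -0.22 with Pou5f1 and -0.25 with Nanog, whereas in BELAs these values were -0.05 and 0.01. In Epi cysts Nanog went with Nodal (0.40), T (0.40), Tdgf1 (0.36) and Fgf8 (0.32), which encode the ligand Nodal, the streak factor brachyury, the Nodal co-receptor Cripto and an FGF of the streak. Sox2 went with Pou3f1 (0.29) and against Nodal (-0.32) there. Pou5f1 went with Tdgf1 (0.34) and Utf1 (0.32) and against Sox11 (-0.36), Hoxb2 (-0.33) and Sox3 (-0.30). Over both settings, the genes most like Nanog by mean correlation, of 6293 genes with at least 0.5 UMIs per thinned cell, were Nodal (0.25), Trh (0.22) and Lefty1 (0.22). Those most like Sox2 were Pou3f1 (0.18), Sinhcaf (0.16) and Jarid2 (0.16), and those most like Pou5f1 were Eif5a (0.28), Phb2 (0.27) and Znrd2 (0.27). The least alike were Pou3f1 for Nanog (-0.13), Nodal for Sox2 (-0.17) and Slc2a3 for Pou5f1 (-0.25). Several of these means join unlike values. Nanog with Nodal was at 0.097 in BELAs and 0.40 in Epi cysts, and Nanog with Lefty1 at 0.080 and 0.36. Sox2 was at 0.067 and 0.29 with Pou3f1, and at -0.030 and -0.32 with Nodal. Pou5f1 with Eif5a was higher in BELAs (0.41 and 0.14). Nanog with Trh (0.20 and 0.24) and Pou5f1 with Znrd2 (0.26 and 0.28) were closer.

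Nanog and Sox2 also differed when Epi cyst cells were split by T, a gene outside the list, as the correlations with T imply. A T UMI was held by 9 of 801 thinned Epi cells of BELAs, against 166 of 592 of Epi cysts. Nanog stood at 58.9 CPM (53.2 to 65.0) in the T-positive cells and 21.4 CPM (19.3 to 23.7) in the other 426, 2.75-fold apart. Sox2 had 53.2 CPM (47.8 to 59.0) in T-positive cells and 86.9 CPM (82.5 to 91.4) in the others. Pou5f1 had 683 CPM in T-positive cells and 576 CPM in the others, and Klf2 had 22.0 CPM in T-positive cells and 31.5 CPM in the others. Otx2 was also lower in the T-positive cells, at 27.4 CPM against 57.2 CPM. Zfp42, with 9.64 CPM (7.42 to 12.3) in T-positive cells and 10.2 CPM (8.70 to 11.8) in the others, was within counting error. Median depths were 64146 and 61906.5 UMIs. T-positive cells were 1.12% of Epi cells in BELAs and 28.0% in Epi cysts (2.76% and 32.0% at full depth), against 0 of 514 VE cells of BELAs. With the T-positive Epi cyst cells left out, the log2 ratio of Nanog with 5 CPM added was 0.38, against -0.12 with all cells.

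**Figure D4:**
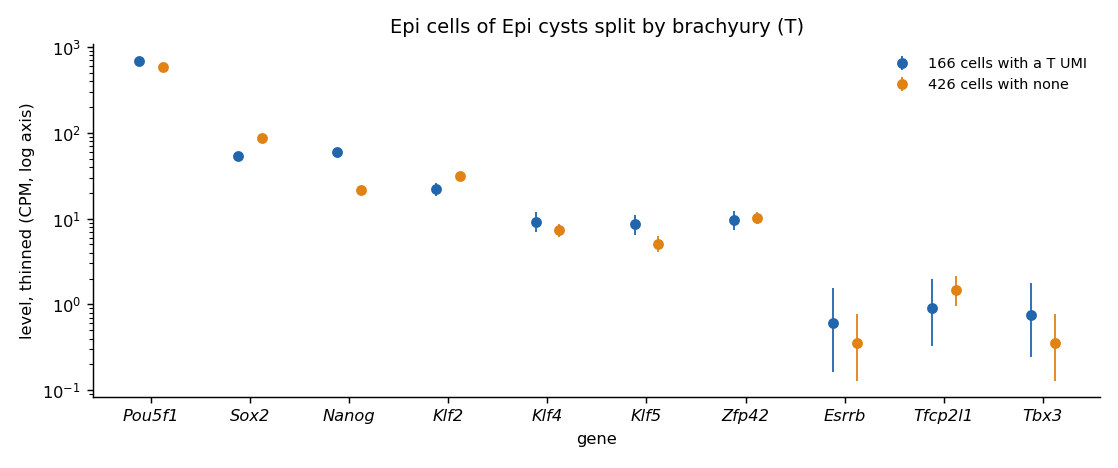
Levels of the 10 genes in thinned Epi cells of Epi cysts (CPM, log axis), for 166 cells with a T UMI and 426 cells with none, with exact 95% Poisson intervals. Pou5f1, Nanog and Klf5 are higher in the T-positive cells, Sox2 and Klf2 are lower, and the intervals of Zfp42, Klf4, Esrrb, Tfcp2l1 and Tbx3 overlap.

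In VE cells, 5 genes of the list stood above their Epi level, 4 of them by more than 4-fold in CPM. Klf5 was at 164 CPM (160.4 to 167) in VE cells of BELAs against 12.5 CPM in Epi cells of BELAs, 13.1-fold higher (12.2 to 14.02). Tbx3 was at 47.4 CPM (45.6 to 49.3) against 2.94 CPM (16.1-fold, 14.02 to 18.6), and Klf4 at 46.7 CPM (44.9 to 48.5) against 7.57 CPM (6.17-fold, 5.62 to 6.77). Tfcp2l1 was at 14.4 CPM (13.4 to 15.4) against 2.97 CPM (4.84-fold, 4.16 to 5.66). Its log2 ratio with 5 CPM added, 1.28, missed the 2-fold limit under a stricter filter on cells (0.823, with 5000 genes or more and 5% mitochondrial UMIs or fewer) and with 20 CPM added (0.58). Zfp42, used as a marker of naive pluripotent cells, was present at 36.9 CPM (35.3 to 38.5) in VE cells and 25.2 CPM in Epi cells (1.46-fold, 1.37 to 1.56). In VE cells it was spread evenly, in 73.9% of thinned VE cells of BELAs against 46.1% of Epi cells (92.1% and 65.7% at full depth), with a variance over mean of 1.23 and a highest count of 7. VE cysts gave the same 5 genes, with Klf5 at 138 CPM in VE cells against 7.43 CPM in Epi cells, Klf4 at 105 against 8.36 CPM, Tbx3 at 49.5 against 0.464 CPM and Tfcp2l1 at 15.2 against 2.09 CPM. In order, these Epi values of VE cysts rest on only 32, 36, 2 and 9 UMIs. The ratio intervals were wide in VE cysts, at 29.5 to 880 for Tbx3 and 3.81 to 16.0 for Tfcp2l1. Zfp42 was there at 39.6 CPM in VE cells and 18.1 CPM in Epi cells (2.19-fold, 1.74 to 2.78). With 5 CPM added, 4 of the 10 genes lay 2-fold or more higher in VE cells than in Epi cells of BELAs. On that scale 4 (Pou5f1, Sox2, Nanog and Klf2) lay 2-fold or more lower, where 10.6% of 13178 genes were higher and 6.86% lower. In VE cysts the counts were 4 and 4, where 15.3% of 13612 genes were higher and 8.98% lower. With 20 CPM added Klf2 missed the limit in both (log2 ratios of -0.54 in BELAs and -0.46 in VE cysts), as did Tfcp2l1 in VE cysts (0.67). Zfp42, at a log2 ratio of 0.95 in VE cysts, passed the limit under the stricter filter (1.03), thinned (1.05), with 1 CPM added (1.09) and scaled to the median gene (1.02), and Esrrb passed as lower in BELAs with 1 CPM added (-1.31).

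Pou5f1, Sox2 and Nanog took part in calling the lineage, so their low level in VE cells is a description. Under a rule that uses VE markers alone (at least 500 CPM in a cell), the log2 ratios of VE to Epi cells of BELAs with 5 CPM added were -3.61 for Pou5f1, -2.92 for Sox2 and -2.525 for Nanog, against -3.59, -2.93 and -2.53 under the rule used here. In VE cells of BELAs Pou5f1 was at 35.2 CPM (33.6 to 36.8), Sox2 at 1.74 CPM (1.41 to 2.13) and Nanog at 1.05 CPM (0.792 to 1.35), or 7.32%, 3.76% and 3.498% of their levels in Epi cells. In VE cells of VE cysts Pou5f1 was at 17.7 CPM (16.3 to 19.1), Sox2 at 0.845 CPM (0.570 to 1.21) and Nanog at 0.0845 CPM (0.0174 to 0.247, 3 UMIs in all). Klf2 was also scarce in VE cells, at 1.23 CPM in BELAs, against 2.90 CPM in VE cysts, and Esrrb had 6 UMIs and 5 UMIs (0.110 and 0.141 CPM).

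For scale, 44 other genes that had at least 50 CPM in Epi cells of BELAs, and at most a 10th of that in VE cysts' VE cells, had a median of 9.49% in VE cells of BELAs (5.03% to 62.5%). Sox2 and Nanog were below all 44, and 15 of the 44 were below Pou5f1, but the lineage rule used these 3 factors and not the 44, so the order is a description.

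**Figure D5:**
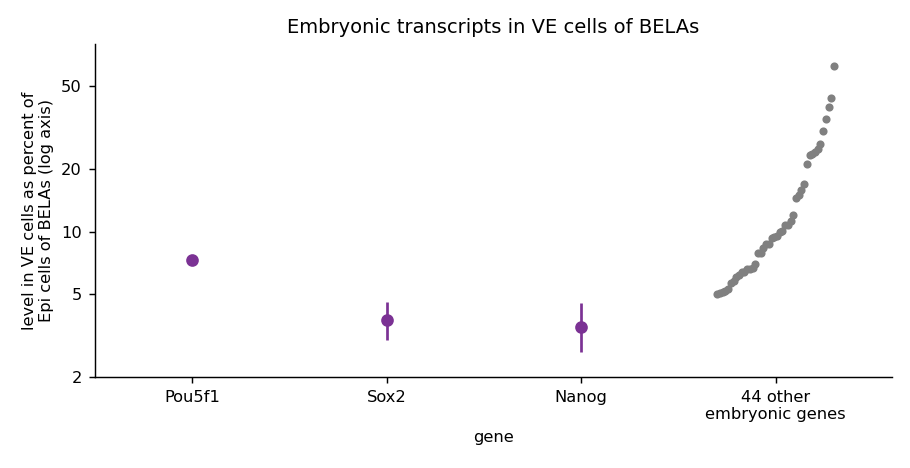
Level in VE cells of BELAs as a percent of the level in Epi cells of BELAs (log axis), for Pou5f1, Sox2 and Nanog with exact 95% intervals. Single points in rising order show 44 other genes picked by level, labelled embryonic though the set is not limited to genes of Epi cells. Pou5f1 is at 7.32%, and Sox2 and Nanog lie under all 44.

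A large part of the Pou5f1 UMIs of VE cells lay in a few of them. The 28 VE cells of BELAs with most Pou5f1 UMIs, of 542, held 63.3% of them, while the 28 deepest cells held 11.8% of all UMIs. Without those 28 cells Pou5f1 stood at 14.04 CPM, and the median VE cell held 1 Pou5f1 UMI. For Sox2 and Nanog the shares of the top 28 cells were 85.3% and 96.5%, and for Klf5, a gene with a high level in VE cells, 17.4%. Scarce genes reach high shares by their low counts alone, and Klf2, with 67 UMIs in these cells, had 88.1%. Leaving out the cells in which the losing lineage had at least 20% of the marker UMIs, 15 VE cells of 542, gave 23.9 CPM of Pou5f1 (22.6 to 25.3), 1.20 CPM of Sox2 and 0.476 CPM of Nanog (0.308 to 0.702). In a VE cell the losing markers are Pou5f1, Sox2, Nanog and Fgf4, so leaving such cells out lowers these genes by the choice itself. Doublets, cells between the lineages and free RNA cannot be told apart in these counts. In all, VE cells held 1917 Pou5f1, 95 Sox2 and 57 Nanog UMIs in BELAs, against 627, 30 and 3 UMIs in VE cysts. At the ratios seen in Epi cells of the same library, the Pou5f1 UMIs would come with 185 Sox2 and 119 Nanog UMIs in BELAs. For VE cysts these numbers were 84.8 and 33.3. All 3 genes took part in calling the lineage, and the source of the Pou5f1 UMIs, RNA made by VE cells included, was not tested. Pou5f1 was found in 37.7% of thinned VE cells of BELAs and 26.6% of those of VE cysts (51.8% and 33.8% at full depth, with median depths of 90251 and 56914 UMIs).

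Between the VE cells of BELAs and of VE cysts, 0 of the 10 genes lay 2-fold or more higher in BELAs and 1, Klf4, 2-fold or more lower, where 1.25% of 12741 genes were higher and 2.25% lower. Klf4 stood at 46.7 CPM (44.9 to 48.5) in BELAs, against 105 CPM (101 to 108) in VE cysts, but its log2 ratio missed the limit as a mean over cells (-0.93) and with 20 CPM added (-0.90). Klf5 was at 164 CPM in BELAs, against 138 CPM in VE cysts. The intervals of the ratios of Tbx3 (0.902 to 1.02) and Tfcp2l1 (0.843 to 1.05) held 1. Pou5f1 was 1.99-fold higher in BELAs (1.82 to 2.18), in the library that also held more Epi cells, and passed the limit under the stricter filter on cells (1.11).

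Within VE cells of BELAs Klf4, Klf5 and Tbx3 went weakly together, and Tfcp2l1 did not go with Klf4 or Klf5. Tfcp2l1 ran against Klf5 (-0.28) and Klf4 (-0.19) over 514 thinned cells, while Klf5 went with Tbx3 (0.34) and Klf4 (0.24), and Klf4 with Tbx3 (0.28). In 473 VE cells of VE cysts these 5 values lay between -0.06 and 0.09. Splitting VE cells of BELAs by Lhx1, a factor of the anterior visceral endoderm, a split chosen with earlier results known, separated Tfcp2l1 from the other naive factors. Tfcp2l1 stood at 26.5 CPM (23.2 to 30.1) in the 219 Lhx1-positive cells and 8.39 CPM (6.82 to 10.2) in the other 295. Klf4 had 28.8 CPM (25.3 to 32.5) in Lhx1-positive cells and 67.2 CPM (62.6 to 72.0) in the others, and Tbx3 36.1 CPM and 59.7 CPM. Lhx1-positive cells were 42.6% of thinned VE cells of BELAs and 1.48% of those of VE cysts. Klf5 had 134 CPM in Lhx1-positive cells and 197 CPM in the others, and Pou5f1 17.7 CPM and 40.4 CPM, while Zfp42 had 35.5 CPM (31.7 to 39.7) and 38.1 CPM (34.7 to 41.8). Median depths were 97481 and 88676 UMIs. Over VE cells of both libraries, the genes most like Klf5 of 6628 were Gata6 (0.44), Nrg1 (0.41) and Htra1 (0.40), and those most like Klf4 were Btg1 (0.40), Sparc (0.39) and Pth1r (0.34). Tbx3 was most like Eva1a (0.28), Gata6 (0.28) and Hspg2 (0.27), and Tfcp2l1 most like Tmprss2 (0.29), Afp (0.29) and Slc16a1 (0.26). These are means of the 2 libraries. Tfcp2l1 with Afp was at 0.43 in BELAs and 0.16 in VE cysts, and Tbx3 with Eva1a at 0.37 and 0.20. Klf5 with Gata6 was closer (0.45 and 0.43). Ttr, which encodes the serum protein transthyretin, was least like Klf5 (-0.45), Pou5f1 (-0.40) and Tbx3 (-0.26).

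In the 48 Epi cells that remained in VE cysts, Pou5f1 was at 661 CPM (637 to 686) and Nanog at 35.1 CPM (29.7 to 41.1). These core factors and Sox2 took part in calling the cells Epi, so their levels here are a description. Sox2, at 89.4 CPM (80.7 to 98.8), was 1.93-fold above Epi cells of BELAs (1.73 to 2.14). Their Klf2 was at 11.6 CPM (8.62 to 15.3), close to 10.9 CPM in Epi cells of BELAs and below 30.1 CPM in those of Epi cysts. Zfp42 was at 18.1 CPM (14.3 to 22.6), below the 25.2 CPM of BELAs and above the 10.1 CPM of Epi cysts. Set against Epi cells of BELAs with 5 CPM added, 0 of the 10 genes were 2-fold apart, where 0.496% of 12898 genes were higher and 0.457% lower. In CPM alone Tbx3, with 2 UMIs, stood at 0.158 of its level in BELAs (0.0190 to 0.578). Set against Epi cysts with 5 CPM added, 0 of the 10 genes were higher and 1, Klf2, was lower, where 0.529% of 12849 genes were higher and 0.444% lower.

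Other genes of the pathway were read as lists with the same limit. Of 18 further pluripotency genes, 4 lay 2-fold or more higher and 1 lower in Epi cells of BELAs than in Epi cysts, with a median log2 ratio of 0.08, where 0.932% of all genes tested were higher and 1.00% lower. Dppa5a stood at 647 CPM in BELAs against 120 CPM in Epi cysts, Tdgf1 at 102 against 26.3 CPM and Fgf4 at 21.9 against 7.29 CPM, and the RNA-binding protein gene Lin28a at 135 against 281 CPM. Of 11 formative and primed genes, 3 were higher and 0 lower, beside the same shares of all genes. They were Fgf5 (90.1 against 35.5 CPM), Otx2 (106 against 49.7 CPM) and Utf1 (615 against 289 CPM). Utf1 is on both lists and was counted in each, and Fgf4 took part in the lineage rule. Of 8 genes of LIF signalling through STAT3, 0 were past the limit in Epi cells, but 4 were higher and 1 lower in VE cells than in Epi cells of BELAs, where 10.6% of all genes tested were higher and 6.86% lower. The LIF receptor gene Lifr was at 23.6 CPM in VE cells of BELAs against 3.70 CPM in Epi cells, Stat3 at 36.4 against 7.31 CPM and Il6st, the shared receptor chain gp130, at 12.5 against 3.19 CPM, while Pim1 was at 5.65 against 40.7 CPM. Lifr also differed between VE cells of BELAs (23.6 CPM) and of VE cysts (94.9 CPM). Of 14 other KLF genes, 1 was higher in Epi cells of BELAs than in Epi cysts (Klf9, 122 against 55.0 CPM), and of 6 other SOX genes 0 passed the limit in either direction there, beside the same 0.932% and 1.00%. Genes of the streak and mesoderm (8 genes) summed to 16.0 CPM in Epi cells of BELAs, against 80.3 CPM in Epi cysts, and 5 genes of the posterior axis to 0.361 CPM in BELAs, against 136 CPM in Epi cysts. The sums were 58.6 and 71.1 CPM for 5 neural genes, 14.2 and 8.32 CPM for 6 germ cell genes and 44.0 and 26.4 CPM for 6 trophoblast genes. For 5 genes of 2-cell-like cells the sum was 0.0555 CPM in BELAs, against 0 in Epi cysts. Whether these other cells had a part in the differences of the 10 genes was not tested beyond the splits by T and Zfp42.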

How the data were processed

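Droplet-based single-cell RNA-seq (10x Genomics 3' chemistry, in which UMIs mark molecules) was run on 1 library of each kind of aggregate. The authors aligned reads to mm10 and made the deposited UMI count tables, 1 count per gene and cell barcode, with Cell Ranger 4.0.0, and the tables hold barcodes that had been called as cells. The libraries held 134098180 (BELAs), 43408723 (Epi cysts) and 42059982 (VE cysts) UMIs.

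Counts were read with Python 3.11.15, NumPy 2.4.6, SciPy 1.17.1 and pandas 2.3.3. UMIs were summed per lineage and library, with exact Poisson intervals for levels and exact conditional binomial intervals for ratios, at 95%. Ratios across genes used log2(CPM + 5), and 2-fold was the limit for genes with 1 CPM in either group. Correlations, shares of cells and splits used cells thinned to 40000 UMIs, with shallower cells left out (67 Epi and 28 VE cells in BELAs, 64 Epi cells in Epi cysts, 4 Epi and 104 VE cells in VE cysts). Steps were tested on simulated data. No doublet caller was run, and 14 Epi and 15 VE cells of BELAs, 1 cell of Epi cysts and 3 Epi and 1 VE cells of VE cysts held mixed markers. How far reads are shared with the retrocopies of Pou5f1 and Nanog was not tested.

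Members and lists were chosen with earlier results of these data known. All 10 members are named, together with the 3 most and 1 least alike genes, listed genes past 2-fold (up to 4 per list) and fixed marker genes. The limit of 10 Zfp42 UMIs, the genes given for those cells, and the splits by T and Lhx1 were chosen after values were seen. Alternatives changed the cell filter, lineage rule, mixed or deepest cells, depth, averaging, added CPM and scaling.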

Additional observations from a re-analysis of the deposited data

Results flagged for a closer look

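Pou5f1 was also found in barcodes that the filter on cells left out, which enter no comparison. It stood at 176 CPM (167 to 186) in 810 barcodes of BELAs, at 472 CPM (445 to 500.2) in 419 barcodes of Epi cysts and at 33.5 CPM (26.4 to 42.0) in 256 barcodes of VE cysts. A count of 0 would allow 0.401, 1.23 and 1.32 CPM at these depths, and the median barcode left out held 6229, 3979 and 6724.5 UMIs.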

How the results depend on the processing

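Of 165 values of the main comparisons and correlations recomputed under alternatives, 139 stayed within counting error or within 1.5 times the count and 26 moved. For single genes and counts over all genes, 310 of 436 stayed and 126 moved. No gene past 2-fold changed sign, but values near 0 did, in 11 cases for the medians and correlations and in 10 for single genes, among them Nanog in Epi cells of BELAs against Epi cysts (0.38 thinned without T-positive cells, against -0.12). In Epi cells of BELAs against Epi cysts, 1 gene (Zfp42) instead of 0 was 2-fold higher without the deepest 5% of cells, without mixed cells, thinned (1.02, and 1.01 when T-positive cells were also left out), as a mean over cells and scaled to the median gene, while 3 (Zfp42, Esrrb and Tbx3) were with 1 CPM added. With 20 CPM added 0 genes were lower. The median log2 ratio there was 0.23 as a mean over cells, 0.38 with 1 CPM added, 0.0363 with 20 CPM added, and when thinned -0.0360 without the Zfp42-high cells and 0.33 without T-positive cells, against 0.14.

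Between VE cells of BELAs and VE cysts, 1 gene (Pou5f1) was higher under the stricter filter, and 0 were lower as a mean over cells or with 20 CPM added. The median there was -0.0863 under the stricter filter, 0.0356 thinned, 0.0431 as a mean over cells and 0.0181 scaled to the median gene, against -0.03. For VE over Epi cells of BELAs the median was -0.39 with 1 CPM added, 0.11 with 20 CPM added and 0.14 scaled, against 0.03, and for VE cysts 0.17 with 1 CPM added, against 0.37. The correlation of Pou5f1 with Nanog in Epi cysts was 0.15 thinned to 25000 UMIs and 0.16 without T-positive cells, against 0.25. The causes were not tested.

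Without a filter on genes, 0.372% of 32285 genes were higher and 0.3996% lower in Epi cells of BELAs, and with 10 CPM as the minimum 1.28% and 1.48% of 7823. The last scaling moved the median of all genes by up to 0.107 (VE over Epi cells of BELAs). Zfp42, Esrrb and Tbx3 in Epi cysts rest on few UMIs (414, 14 and 22). No paired analysis was possible because each group has 1 library, and for the same reason no replicate could be left out.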
